A study of Mus musculus with 26 samples.

Results

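Of the 23245 Onecut1 binding events listed on day 5 of motor neuron differentiation, 6865 had no Onecut1 event within 100 bp in the list of day 6. These 6865 events (29.5%, exact 95% binomial interval 28.9 to 30.1) are called lost here, and the other 16380 are called kept. They were chosen by the absence of a nearby call, so "lost" means not listed on day 6 and is not a measurement of absent binding. Day 5 and day 6 had 1 Onecut1 library each, so a change of the day and a difference between these libraries cannot be told apart. The day 6 list was the longer of the pair, with 63488 events, of which 47377 (74.6%) had no day 5 event within 100 bp.

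Onecut1, also known as HNF6, is a transcription factor with a cut domain and a homeodomain, and in the spinal cord it is present in newly born motor neurons, where it takes part in the expression of Isl1. Isl1 is a LIM homeodomain factor that specifies motor neurons and pairs with Lhx3, while Ngn2 is a basic helix-loop-helix factor that drives neurogenesis. p300 is an acetyltransferase recruited to active enhancers, where it acetylates lysine 27 of histone H3 (H3K27ac). An enhancer that is used only briefly can lose its accessible chromatin, its p300 and its acetylation at different times.

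Mouse embryonic stem cells of lines labelled Ainv15 with a growth label of iCre were differentiated to spinal motor neurons with 1 uM retinoic acid and 0.25 uM SAG, a Hedgehog pathway agonist, from day 2. The day 5 and day 6 cultures also received 5 uM DAPT, which blocks Notch signalling, from day 4. ATAC-seq gave open chromatin for days 2, 4, 5 and 6, and DNase-seq gave it for day 0 (growth label HBG3). Untreated cultures were used on days 0 and 2, and day 4 cultures had retinoic acid and SAG without DAPT. H3K27ac was mapped on days 4, 5 and 6, p300 on days 5 and 6, and Isl1 on days 5 and 6. A V5-tagged factor was mapped on day 4 in an inducible NIL line given retinoic acid and 3 ug/ml doxycycline, with no SAG named. Its label says Lhx3 while its file name says Isl1, so it is called the library labelled Lhx3. V5-tagged Ngn2 was mapped on day 4 in an inducible Ngn2 line given retinoic acid, SAG and 3 ug/ml doxycycline. In both inducible lines the factor came from a transgene and not from the gene's own promoter.

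Of the 14 measures set beside the Onecut1 events, 11 rested on 1 library, and H3K27ac of day 4 and Isl1 of each day rested on 2. A measure was counted as present at an event when its peak or event lay within 100 bp, or within 500 bp for the broader H3K27ac. The cultures were bulk samples, so fewer cells with a bound site and less binding per cell cannot be told apart. RNA of the same course, with 1 library a day and the growth label changing from HBG3 to iCre between days 4 and 5, listed Onecut1 at 0.0586, 1.99, 12.5 and 14 FPKM (a level per gene length and sequencing depth) on days 0, 4, 5 and 6. The Onecut1 transcript was therefore not lower on day 6 than on day 5 in these libraries, nor was that of Onecut2, a close paralog, at 15.6 and 18.4 FPKM. Isl1 stood at 88.0 and 116.5 FPKM on days 5 and 6, whereas Lhx3 stood at 24.1 and 3.90 FPKM. The progenitor gene Olig2 stood at 38.1, 17.3 and 0.95 FPKM on days 4, 5 and 6, and Hes5, a Notch target of progenitors, at 83.4, 1.90 and 0.442 FPKM. Day 5 cultures thus held more progenitor transcript than day 6 cultures, and its part in the Onecut1 results was not tested.

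The lost events were weak on average, and their strength is given as a description because the selection was made on the same lists. In precipitated reads assigned to an event by the authors, lost events had a median of 11 (quartiles 9 and 15) and kept events a median of 14 (quartiles 10 and 24.6). The lowest event in either class had 7 reads, and the highest had 410.3 among lost and 603.1 among kept events. A kept event drawn at random beside a lost one was the stronger in 62.5% of pairs, with ties counted as 50%, so the distributions overlapped over most of their range. The −log10 q listed by the authors was under 3 at 4209 lost events (61.3%) and at 7178 kept events (43.8%). Control reads were listed at 0 at 81.9% of lost and 73.7% of kept events, and only 6 lost and 8 kept events had 10 or more, so high control signal marked few events of either class.

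The share lost fell with strength but did not reach 0. When the day 5 list was split into 10 strata of reads, 43.1% (41.4 to 44.8) of the 3287 events with 7 to 8 reads were lost. The share stood between 30.3% and 31.2% from 10.1 to 15 reads, at 19.1% from 25.3 to 46.1 reads, and at 9.77% (8.59 to 11.0) in the top stratum of 46.2 to 603.1 reads, where 227 of 2324 events were lost. Above 100 reads, 42 of 747 events (5.62%) were lost. Had every stratum lost events at the share of the top stratum, 2270 events would have been lost, which is 33.1% of the observed number. The observed loss beyond that number is the part that went with signal weaker than the top stratum, and this says nothing of its cause. The split depends on the class taken as reference, since the share lost was lower still among events of 100 reads or more.

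**Figure D1:**
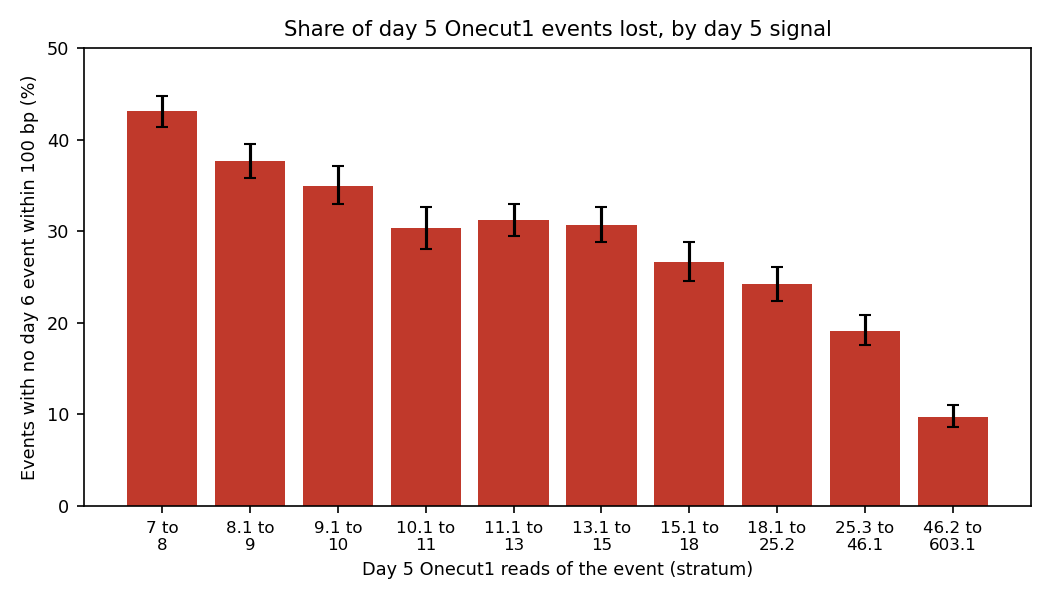
Bars give the percentage of day 5 Onecut1 events with no day 6 event within 100 bp, in 10 strata of day 5 precipitated reads (x axis), and lines give exact 95% binomial intervals. The share runs from 43.1% at 7 to 8 reads to 9.77% at 46.2 reads or more, with a flat stretch between 10.1 and 15 reads.

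The day 6 reads of kept events are given as a description, because kept events were selected for having a day 6 call. In the stratum of 7 to 8 reads, the nearest day 6 events of the kept events had a median of 17 reads, and 10.8% of them had under 10 reads. In the top stratum that median was 146.1 reads, the 5th percentile was 34.2 reads and 0.0954% had under 10 reads. The median of the whole day 6 list was 16 reads and its lowest value 6, so the kept events of the weakest stratum resembled the list as a whole and say nothing of signal at the lost sites. The day 6 reads at the lost positions themselves were not analysed here, since the lists hold called events only.

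Same-day replicate lists of Isl1 give a scale for how often a call is absent from another list, although Isl1 has far shorter lists than Onecut1. On day 5, 74.1% of the 2260 events of Isl1 replicate 1 had no replicate 2 event within 100 bp, and 49.1% of the 1079 events of replicate 2 had none in replicate 1. On day 6 these shares were 66.1% and 67.6%. In the highest of 5 classes of reads they were 32.6% and 41.7% on day 5 and 21.5% and 44.0% on day 6. The Onecut1 loss from day 5 to day 6 was 40.7% in the lowest and 14.5% in the highest of 5 classes of reads, which is below the same-day Isl1 values. In the reverse direction, from the longer day 6 list to day 5, 74.6% of Onecut1 events were missing, with 93.1% in the lowest and 43.8% in the highest class. These shares therefore moved with which list was the longer and give no order between Onecut1 and Isl1. A same-day replicate of Onecut1 was not analysed here, so the part of the loss that repeated calling alone would give was not measured.

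Most lost events lay far from any day 6 event. Kept events lay a median of 1 bp from the nearest day 6 event, and 14314 of 16380 lay within 10 bp. Lost events lay a median of 10494 bp away, 723 (10.5%) lay within 1 kb, and 597 lay beyond 50 kb. Numbers were low on both sides of the threshold, with 358 kept events at 51 to 100 bp and 103 lost events at 101 to 150 bp. The lost events nearest to the threshold lay 101 bp away at chr1:6201754, chr6:126579943 and chr10:127649087 (mm9), with 11, 8 and 12.9 reads. The kept events nearest to it lay at chr3:9356020, chrX:111102113 and chr3:56716396, with 11.7, 10 and 10 reads at 100, 100 and 99 bp.

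Lost events were spread over the genome. The share lost ran from 26.4% on chromosome 11 to 32.8% on chromosome 16. Within the day 5 list, 748 lost events (10.9%) had another day 5 event within 100 bp, in 734 cases another lost one, against 4550 kept events (27.8%). Such neighbouring calls can split the reads of 1 site, and they are not independent of each other. A kept day 5 event lay within 5 kb of 793 lost events (11.6%).

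The 10 strongest lost events on chromosomes 1 to 19 and X had 168.8 to 410.3 reads, and 7 of them had another day 5 event within 100 bp. The strongest, at chr9:63344734, had 410.3 precipitated reads against 5.1 control reads and ranked 8 in the whole day 5 list. Its nearest day 6 event was 1628 bp away and had 22.0 reads. It had no ATAC, H3K27ac or p300 on any day mapped. It did have an event of the library labelled Lhx3 with 80.6 reads and an Isl1 event in day 6 replicate 2 with 14.1 reads. The second, at chr3:16745092, had 299.0 reads and lay 2275 bp from a day 6 event of 685.4 reads. It likewise had no ATAC peak, but it had H3K27ac on days 5 and 6, an Isl1 event of 29.0 reads in day 5 replicate 1 and an event of 41.0 reads in the library labelled Lhx3. These were the strongest lost events, and neither had open chromatin by this measure.

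Other strong lost events lay in chromatin that was open on both days. The event at chr17:16294831 had 232.0 reads, ATAC and H3K27ac on days 4, 5 and 6, and a p300 event of 59.0 reads on day 5 with none on day 6. Its nearest day 6 Onecut1 event was 17895 bp away. The event at chr1:30256039 had 209.6 reads, ATAC on days 5 and 6, H3K27ac on day 6, p300 of 83.0 reads on day 5, an Isl1 event of 42.2 reads in day 5 replicate 1 and an event of 11.4 reads in the library labelled Lhx3. The event at chr7:35558744 had 195.7 reads, ATAC and H3K27ac on days 5 and 6, and p300 on both days, with 88.0 reads on day 5. Chromatin at these 3 sites was listed as open on day 6 while Onecut1 was not listed. The events at chr3:126800758 and chr7:58143240, with 180.9 and 168.8 reads, also had ATAC on days 4, 5 and 6.

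The rest of the strongest 10 had little beside Onecut1. The event at chr3:139392165 had 201 reads and an ATAC peak on day 6 alone, and that at chr19:28083774 had 175.6 reads and H3K27ac on day 4 alone. The event at chr12:110258719, with 194.0 reads, was the strongest lost event open on day 5 and not on day 6, and it had an Isl1 event of 40 reads in day 5 replicate 2.

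As a whole, lost events carried chromatin and factor measures less often than kept events. Of the 14 measures, 11 were at a smaller share of lost events with a 95% interval of the difference (Newcombe) that did not include 0, 2 were at a larger share, and for 1 the interval included 0. None of the 14 was present at 4566 lost events (66.5%) and at 9365 kept events (57.2%). Since lost events were weaker, kept events were also weighted to the distribution of the lost events over the 10 strata of reads. After weighting, 5 measures were lower at lost events, 4 were higher and for 5 the interval included 0. At the level adjusted over all 28 comparisons, 8 of the weighted intervals did not include 0. The intervals cover counting over events within these libraries and not the spread between libraries, and neighbouring events make them too narrow.

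**Figure D2:**
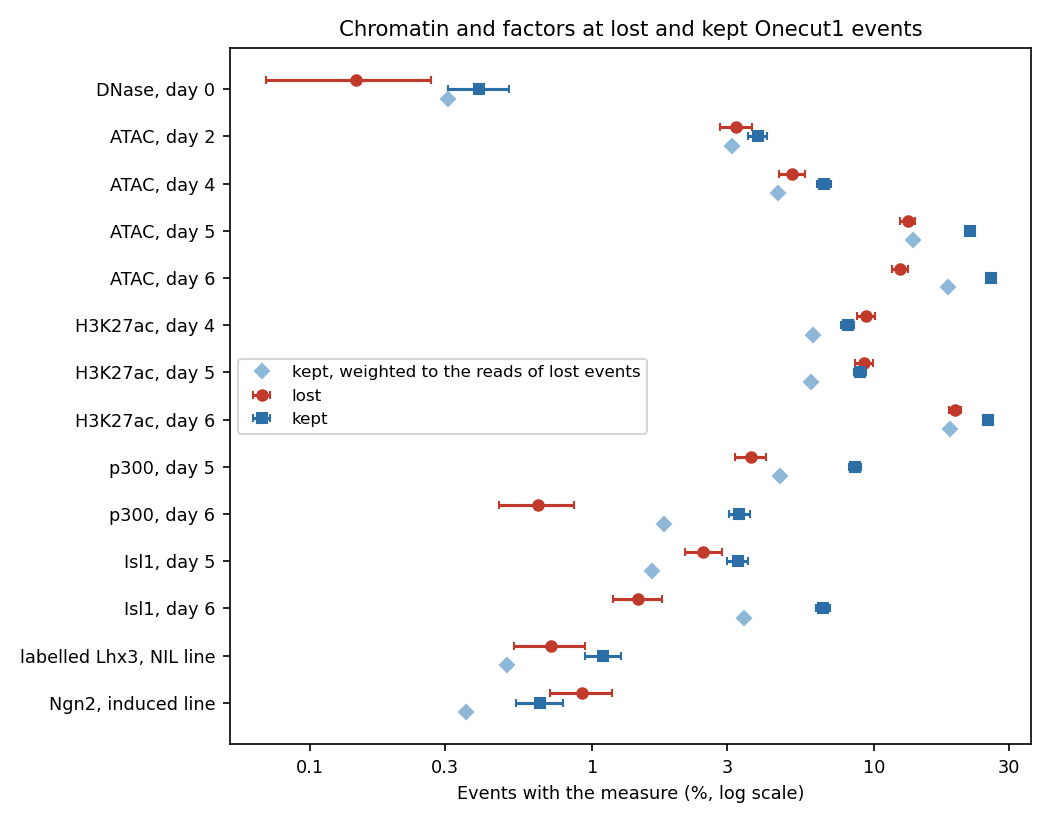
Percentage of Onecut1 events with each measure (x axis, log scale) among the 6865 lost events (circles), the 16380 kept events (squares) and the kept events weighted to the reads of the lost events (diamonds), with exact 95% binomial intervals for circles and squares. ATAC of day 5 stands at 13.1% of lost and 13.7% of weighted kept events, whereas ATAC of day 6 stands at 12.3% and 18.2%.

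On days 0 to 4, before Onecut1 transcript was high, few sites of either class had a listed peak of open chromatin. The day 0 list held 9955 positions of 1 bp, against 85989 and 47839 peaks with a median width of 100 bp on days 2 and 4. Shares of day 0 are therefore not on the scale of those of the later days. A DNase peak of day 0 was present at 0.323% of all day 5 events, at 10 lost (0.146%) and 65 kept events (0.397%), and the difference at like strength (−0.162 points) did not pass the level adjusted over 28 comparisons. ATAC of day 2 was present at 3.67% of all events, at 3.23% of lost and 3.85% of kept events. At like strength the day 2 difference was 0.115 percentage points (−0.382 to 0.612). ATAC of day 4 was present at 6.17% of all events, at 5.11% of lost and 6.61% of kept events, and the difference at like strength was 0.572 points (−0.0276 to 1.17). No difference in accessibility was thus detectable on day 2 or day 4 once strength was matched, although with a window of 500 bp the lost events were higher by 1.50 points on day 2 and 2.36 on day 4.

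On day 5 the accessibility of lost and kept events, counted within 100 bp and weighted over all strata, did not differ detectably. Among strong events the lost ones were less often open on day 5, and on day 6 accessibility differed. An ATAC peak of day 5 was present at 19.2% of all events, at 899 lost (13.1%) and 3565 kept events (21.8%). That difference of −8.67 points (−9.67 to −7.64) shrank to −0.641 (−1.53 to 0.245) at like strength. It was lower at lost events in 5 strata and higher in 5. In the highest of 5 classes of reads, without matching inside the class, 40.8% of lost and 52.6% of kept events were open, a difference of −11.8 points (−15.8 to −7.75), and in the lowest class the difference was 0.395 points (−0.649 to 1.49). The difference at like strength turned to 2.43 points with a window of 500 bp, and to 1.01 points over the strongest event of each 1 kb region. Narrower windows of 50 and 0 bp gave −1.28 (−2.09 to −0.474) and −1.03 points (−1.69 to −0.366). Counting as lost only events with no day 6 event within 500 bp gave −1.28 points (−2.17 to −0.388). An ATAC peak of day 6 was present at 21.9% of all events, at 844 lost (12.3%) and 4251 kept events (26.0%), a difference of −13.7 points (−14.7 to −12.6). At like strength −5.86 points (−6.80 to −4.93) remained, and the lost share was the lower in 10 of 10 strata. In the top stratum, 43.6% of lost and 65.0% of kept events were open on day 6.

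Lost events near open chromatin also lay farther outside the listed peaks, while the position inside a peak was not measured. Of events within 500 bp of a day 5 ATAC peak, 899 of 1417 lost (63.4%) and 3565 of 4420 kept events (80.7%) lay within 100 bp of it. The median distance, counted outward from the peak's edge, was 52 bp for those lost and 9.5 bp for those kept, without matching for strength. This offset and the classes of chromatin turnover that follow were examined after the data had been seen.

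**Figure D3:**
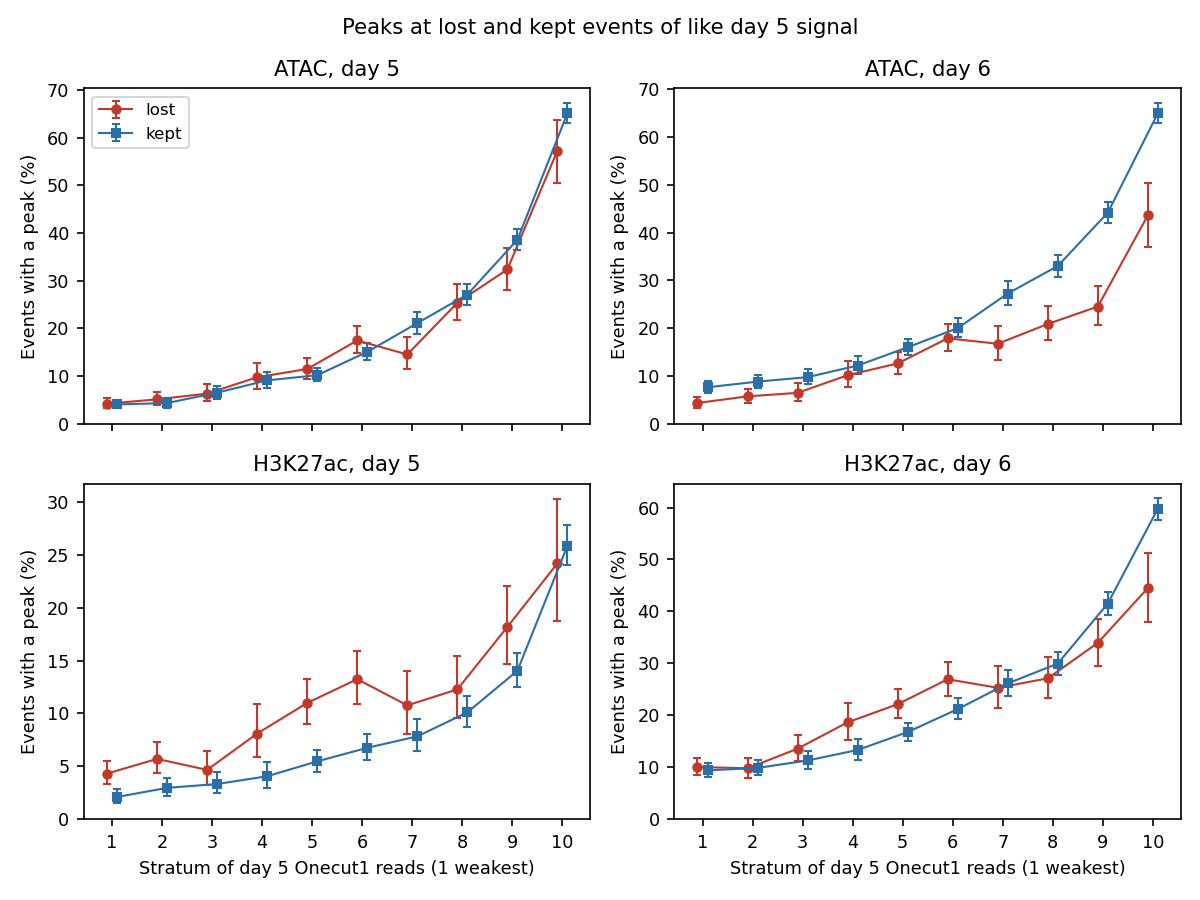
Percentage of lost (circles) and kept (squares) events with an ATAC or H3K27ac peak on day 5 or 6 (y axes, scaled separately) in each of the 10 strata of day 5 Onecut1 reads (x axis, 1 weakest), with exact 95% binomial intervals. For ATAC of day 5 the lost events are lower in 5 strata and higher in 5, with intervals apart in the seventh (14.5% and 21.1%), the lost events are lower in all 10 strata for ATAC of day 6, and they are higher in 9 of 10 strata for H3K27ac of day 5.

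Onecut1 events were lost more often where open chromatin was listed on day 5 and no longer on day 6. Of 1137 events with an ATAC peak on day 5 and none on day 6, 373 (32.8%) were lost, against 526 of 3327 (15.8%) open on both days and 318 of 1768 (18.0%) open on day 6 only. Events open on neither day were lost in 33.2% of cases and were much weaker, with a median of 11 reads against 22 for those open on day 5 only. At like strength, events open on day 5 only were lost more often than those open on day 6 only by 17.2 points (14.1 to 20.3), than those open on both days by 14.1 points (11.1 to 17.1), and than those open on neither day by 7.09 points (4.29 to 9.90). These sites were few, since 373 is 5.43% of the lost events. In the highest of 5 classes of reads, 22.0% of events open on day 5 only and 20.3% of those open on neither day were lost. ATAC peaks were listed on none of the 4 days at 5519 lost events (80.4%) and at 11142 kept events (68.0%).

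**Figure D4:**
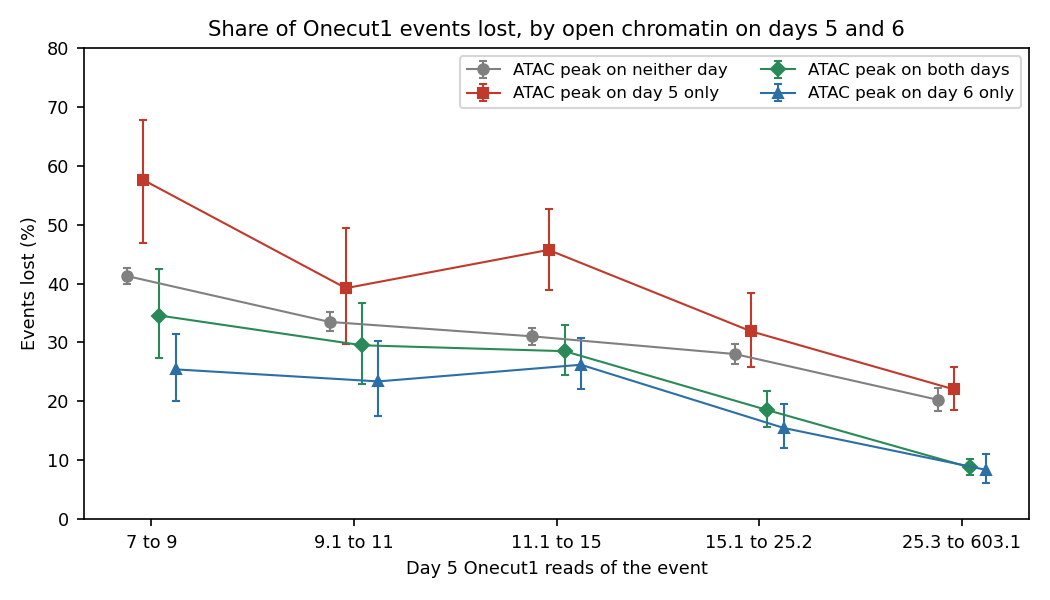
Percentage of day 5 Onecut1 events lost (y axis) in 5 classes of day 5 reads (x axis), split by whether an ATAC peak was listed on neither day, day 5 only, both days or day 6 only, with exact 95% binomial intervals. Events open on day 5 only have the highest share lost in every class, from 57.6% at 7 to 9 reads to 22.0% at 25.3 reads or more. In that last class, those open on both days stand at 8.76%. Those open on neither day stand there at 20.3% (18.4 to 22.2), which overlaps the interval of 18.5 to 25.9 for day 5 only.

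Among the strongest lost events open on day 5 and not on day 6, some had Isl1 in both day 5 libraries. The event at chr15:94932118 had 152.1 Onecut1 reads, Isl1 events of 56.0 and 29.0 reads on day 5 and H3K27ac on days 5 and 6, and lay 352 bp from a day 6 Onecut1 event of 104.0 reads. The event at chr13:91016316 had 150.6 reads, Isl1 events of 35.9 and 58.0 reads on day 5 and an event of 65.0 reads in the library labelled Lhx3. Neither had a day 6 Isl1 event. The event at chr13:116370000, with 138.0 reads, was open on days 4 and 5, had H3K27ac on day 5 and an Ngn2 event, and had an Isl1 event of 9 reads in day 5 replicate 1. The event at chr14:62307552, with 162.0 reads, had the day 5 ATAC peak and none of the other measures.

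H3K27ac of days 4 and 5, counted within 500 bp, was more frequent at lost events of like strength. ATAC counted within 500 bp was also higher at lost events, by 2.36 points on day 4 and 2.43 on day 5. On day 4 H3K27ac was present at 8.43% of all events, at 642 lost (9.35%) and 1318 kept events (8.05%). At like strength the lost events were higher by 3.31 points (2.54 to 4.08). The separate day 4 libraries gave 3.30 and 2.77 points, the second of which is labelled iCre but has HBG3 in its file name. On day 5 it was present at 9.00% of all events, at 9.19% of lost and 8.91% of kept events, and by 3.25 points (2.49 to 4.00) more often at lost events of like strength. Both days showed the lost share higher in 9 of 10 strata. In the sixth stratum, of 13.1 to 15 reads, 13.2% of 717 lost and 6.75% of 1616 kept events had day 5 H3K27ac. The top stratum was the exception, with 24.2% and 25.9%.

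On day 6 this excess was no longer detectable over all strata together, while single strata differed in both directions. H3K27ac of day 6, whose list was the longest at 47275 peaks against 24525 on day 5, was present at 23.5% of all events, at 19.3% of lost and 25.3% of kept events. The difference at like strength was 0.777 points (−0.301 to 1.85), and it turned to −1.25 points when only events with no day 6 event within 500 bp counted as lost. It was 1.75 points, with an interval above 0, over the strongest event of each 1 kb region. The lost share was higher in 5 strata and lower in 5. From 11.1 to 13 reads it was 22.1% against 16.7% of kept events, and from 13.1 to 15 reads 26.9% against 21.2%. From 25.3 to 46.1 reads it was 33.9% against 41.5%, and in the top stratum 44.5% against 59.8%. Of 371 events with H3K27ac on day 5 only, 172 (46.4%) were lost, against 864 of 3750 (23.0%) with H3K27ac on day 6 only. At like strength that difference was 21.2 points (16.1 to 26.3), and it was 13.1 points (7.61 to 18.5) from events with H3K27ac on both days and 20.2 points (15.2 to 25.1) from those with it on neither. Of the 631 lost events with day 5 H3K27ac, 64.5% had it on day 4 as well and 40.6% had a day 5 ATAC peak, against 59.0% and 60.8% of the 1460 kept events with it.

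Counted over all strata, the coactivator p300 was rarer at lost events on both days. On day 5 it was present at 7.10% of all events, at 250 lost (3.64%) and 1401 kept events (8.55%). The difference at like strength was −0.983 points (−1.50 to −0.470), and it was −0.128 points with an interval including 0 when the window was 200 bp, and −0.446 points, again including 0, over the strongest event of each 1 kb region. For day 5 the lost share was lower in 6 strata and higher in 4. From 13.1 to 15 reads, 5.72% of lost and 3.96% of kept events had day 5 p300, and in the top stratum 17.6% and 32.8%. The day 6 list was short, with 1337 p300 events against 19398 on day 5. It covered 2.53% of all Onecut1 events, 44 lost (0.641%) and 544 kept events (3.32%), and −1.15 points (−1.40 to −0.892) remained at like strength. Of the 250 lost events with day 5 p300, 75.6% had a day 5 ATAC peak, 61.6% one on day 6 and 5.60% day 6 p300, against 77.5%, 78.2% and 18.9% of the 1401 kept events with it. Of the 279 Onecut1 events with p300 on both days, 14 (5.02%) were lost, but these were strong, with a median of 62.9 reads. At common strength the share lost was 11.8% against 30.2% with p300 on neither day. That 11.8% has no interval and rests on 2 events in the lowest of 5 classes of reads and 5 in the next. In the highest class, without matching inside it, 5 of 214 (2.34%) with p300 on both days were lost, against 578 of 3417 (16.9%) with p300 on neither. Events with p300 on day 5 only were lost less often than those with it on neither day. At like strength that difference was −3.54 points (−5.60 to −1.47), opposite in direction to those for ATAC, H3K27ac and, below, Isl1. From events with p300 on day 6 only and on both days, the differences were 8.49 and 8.55 points, with intervals above 0.

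Isl1 differed in direction between the days. Day 5 Isl1 was present at 3.04% of all events, at 170 lost (2.48%) and 537 kept events (3.28%). At like strength the lost events were higher by 0.853 points (0.459 to 1.25), in 10 of 10 strata. Day 6 Isl1 was present at 5.05% of all events, at 100 lost (1.46%) and 1075 kept events (6.56%), and the lost events were lower by 1.98 points at like strength (a difference of −1.98, interval −2.34 to −1.62). Of 428 events with Isl1 on day 5 only, 131 (30.6%) were lost, against 61 of 896 (6.81%) with Isl1 on day 6 only. At like strength that difference was 22.3 points (17.7 to 26.9), and that from events with Isl1 on neither day was 9.61 points (5.43 to 13.8). Of 279 events with Isl1 on both days, 39 (14.0%) were lost, at a median of 68.4 reads, and at like strength events with Isl1 on day 5 only did not differ detectably from them (6.31 points, −1.99 to 14.6).

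Each Isl1 library gave the direction of its day. Day 5 replicate 1 marked 137 lost and 428 kept events and replicate 2 marked 78 and 248, with differences at like strength of 0.655 points (0.296 to 1.01) and 0.497 points (0.234 to 0.760). Day 6 replicate 1 marked 50 lost and 781 kept events and replicate 2 marked 64 and 551, with differences of −1.74 (−2.02 to −1.46) and −0.788 points (−1.07 to −0.511). The file names of day 6 replicate 1 and of the day 6 Onecut1 library carry the same mark, which the other Isl1 libraries and the day 5 Onecut1 library do not. The day 6 difference from replicate 2 alone was thus smaller than that from replicate 1. No label says what this mark stands for.

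Events with Isl1 lay mostly in day 5 open chromatin in both classes. Of the 170 lost events with day 5 Isl1, 70.6% had a day 5 ATAC peak and 45.3% one on day 6, against 77.7% and 67.8% of the 537 kept events with it. Day 5 p300 lay at 32.4% and 49.9% of them, and day 6 Isl1 at 22.9% and 44.7%, without matching for strength. Both day 5 libraries listed Isl1 at 45 lost (0.655%) and 139 kept events (0.849%), and both day 6 libraries at 14 lost (0.204%) and 257 kept events (1.57%). At chr14:97729468, a lost event of 108.7 reads, all 4 Isl1 libraries listed an event, with 70.4 and 30.0 reads on day 5 and 37.9 and 40.6 reads on day 6. That site had p300 of 82.0 reads on day 5 and open chromatin on both days, and a day 6 Onecut1 event of 50.8 reads lay 225 bp away. At chr19:45473411, a lost event of 107.1 reads, Isl1 was listed with 15.0 and 13.0 reads on day 5 and in neither library on day 6.

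The library labelled Lhx3 touched few sites of either class. It was present at 0.981% of all events, at 49 lost (0.714%) and 179 kept events (1.09%). The difference of −0.379 points (−0.623 to −0.107) became 0.215 (−0.000317 to 0.430) at like strength, so no difference was detectable, although the interval left out 0 under 6 of the alternatives. Of these 49 lost events, 49.0% had day 5 Isl1 and 24.5% day 6 Isl1, against 63.1% and 49.7% of the 179 kept ones. A day 5 ATAC peak lay at 61.2% of the lost and 73.7% of the kept ones, and a day 6 ATAC peak at 42.9% and 62.6%. The 2 strongest lost events of the whole list were among them, as described above. Among the top stratum, 12 of 227 lost (5.29%) and 106 of 2097 kept events (5.05%) had an event of this library.

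Ngn2 bound in induced progenitors was more frequent at lost events as a whole, though not detectably in the top stratum of reads. There it was at 5 of 227 lost (2.20%) and 56 of 2097 kept events (2.67%), with an interval of the difference of −1.95 to 2.45. It was present at 0.731% of all events, at 63 lost (0.918%) and 107 kept events (0.653%), and the difference at like strength was 0.561 points (0.322 to 0.800). Of these 63 lost events, 65.1% had an ATAC peak on day 4, 69.8% on day 5 and 28.6% on day 6, against 68.2%, 85.0% and 64.5% of the 107 kept events with Ngn2. H3K27ac lay at 60.3% of the lost ones on day 4, 68.3% on day 5 and 20.6% on day 6, against 66.4%, 62.6% and 49.5% of the kept ones. Isl1 lay at 11 lost and 19 kept ones on day 5, and at 0 and 21 on day 6. These Ngn2 events came from an induced transgene on day 4 and not from the cultures in which Onecut1 was mapped.

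**Figure D5:**
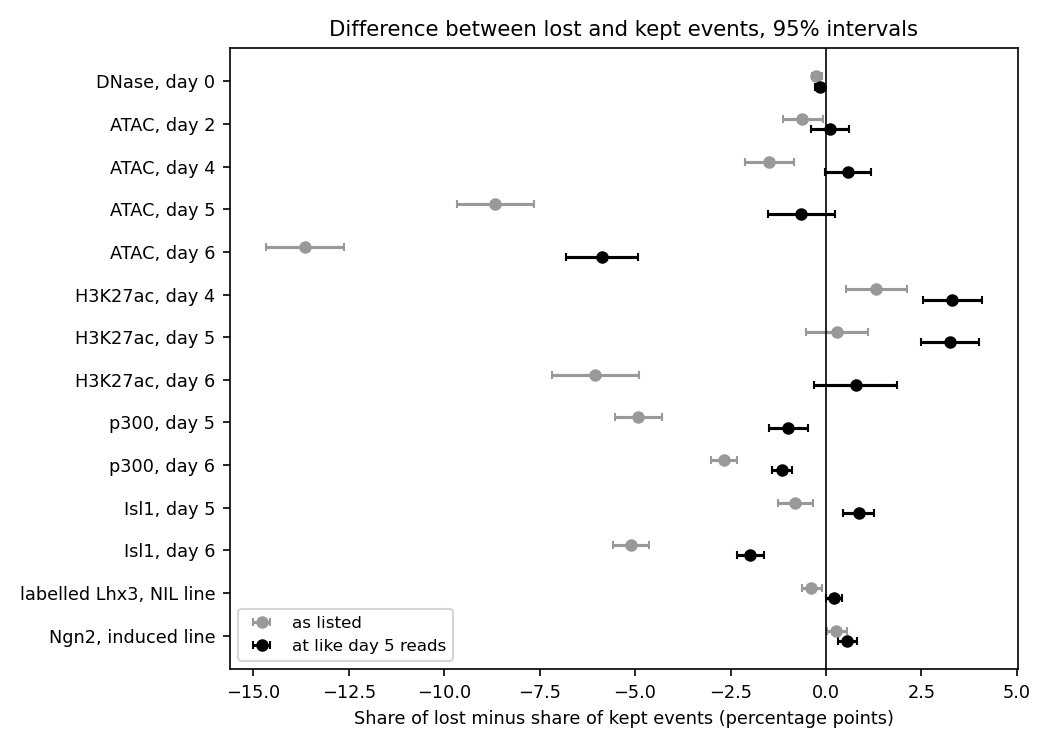
Difference between the percentage of lost and of kept events with each measure (x axis, percentage points, lost minus kept), as listed (grey) and with kept events weighted to the day 5 reads of the lost events (black), with 95% intervals. Weighting moves ATAC of day 5 from −8.67 to −0.641 and leaves ATAC of day 6 at −5.86, and it brings H3K27ac of days 4 and 5 to 3.31 and 3.25.

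The top stratum shows the same measures without the weakest calls. Among its 227 lost and 2097 kept events, day 5 ATAC stood at 57.3% and 65.1%, a difference of −7.87 points (−14.7 to −1.28), and day 6 H3K27ac at 44.5% and 59.8%. Day 5 p300 stood at 17.6% and 32.8%, and day 6 Isl1 at 11.9% and 25.0%. Day 5 Isl1 stood at 17.2% and 14.5%, with an interval of the difference of −1.99 to 8.27. In this stratum the lost events were thus lower for ATAC of days 5 and 6, p300, day 6 H3K27ac and day 6 Isl1. The intervals for ATAC of days 2 and 4, H3K27ac of days 4 and 5 and Ngn2 included 0. All of these stood at a smaller share of lost than of kept events. Strength was not matched inside the stratum, where lost events had a median of 65.8 reads and kept events 78.1.

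Other day 5 measures were absent at most events of both classes. Of the 4 day 5 measures other than Onecut1 (ATAC, H3K27ac, p300 and Isl1), none was present at 5524 lost (80.5%) and 11946 kept events (72.9%), and all 4 were present at 28 lost and 126 kept events. The share lost was 31.6% among events with none, 25.2% with 1, 21.3% with 2, 17.8% with 3 and 18.2% (12.4 to 25.2) with all 4, while the median reads of these groups ran from 11 to 49.1. Strength and the number of other measures therefore moved together, and their parts in the loss were not separated by this count.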

How the data were processed

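The members and all lists were chosen with earlier results of these data known. Onecut1, Isl1 and the library labelled Lhx3 were mapped by ChIP-exo, and H3K27ac, p300 and Ngn2 by ChIP-seq. Per the submitters' processing notes, Bowtie 0.12.7, HOMER 4.7.2, STAR and MACS were used with the mm9 build, with no role given for each. Per the file headers, the event lists hold the authors' precipitated and control signal as read numbers, the fold (a ratio, listed as 9999.9 where the control is 0) and −log10 q and p values. The deposited peak lists hold the authors' positions with a score and a signal value. The RNA table holds FPKM made by the authors. The total reads per library are not given in the sources used here, so precision is limited to counts of events.

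From these files, distances between events and peaks were computed in Python 3.11.15 with numpy 2.4.6, pandas 2.3.3 and scipy 1.17.1. Shares carry exact (Clopper-Pearson) and their differences Newcombe 95% intervals. For comparison at like strength, kept events were weighted to the lost events over 10 strata of reads, with a normal interval. The code was tested on simulated data. No test across libraries was made. Named sites were the 10 strongest lost events and the strongest with given measures (day 5 ATAC with or without day 6 ATAC, Isl1 in both day 5 libraries, the library labelled Lhx3, p300), on chromosomes 1 to 19 and X, and those nearest the 100 bp limit, of which some are printed. Alternatives varied the windows, the definition of lost, the q limits, the score, the libraries and the weights. IgG and whole cell extract libraries were not analysed here. Genes near the sites and Onecut motifs were not analysed here.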

Additional observations from a re-analysis of the deposited data

Results flagged for a closer look

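At like Onecut1 strength, Isl1 differed in opposite directions on the 2 days at lost and kept events. On day 5 the share of lost events with Isl1 was higher than that of kept events by 0.655 percentage points in replicate 1 and 0.497 in replicate 2. On day 6 it was lower, with differences of −1.74 points in replicate 1 and −0.788 in replicate 2. Both libraries of each day pointed the same way, and the difference between the days itself was not tested.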

How the results depend on the processing

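Of the differences at like strength, those of day 6 ATAC (−8.95 to −3.08 percentage points), day 4 and day 5 H3K27ac (2.26 to 4.40 and 1.69 to 4.28), day 6 p300 (−2.32 to −0.682), day 5 Isl1 (0.299 to 1.51), day 6 Isl1 (−3.82 to −0.554) and Ngn2 (0.406 to 0.955) kept their direction and an interval without 0 under every alternative run with matching. The highest and lowest of 5 classes of reads were run without matching only. In the highest class, the intervals for day 4 H3K27ac, day 5 Isl1 and Ngn2 included 0. Day 5 H3K27ac was −0.0587 there (−3.20 to 3.37), while day 6 ATAC, p300 and Isl1 stayed below 0. In the lowest class, the intervals for day 6 p300 and for Isl1 of both days included 0. The count of 6865 lost events was 2656 of 11858 (22.4%) among events with −log10 q of 3 or more and 902 of 5677 (15.9%) at 5 or more. In these shorter lists the share lost was lower than 29.5%. Merging events within 1 kb gave 6107 lost of 19692 regions (31.0%), where a region was lost if all its events were. This counts regions and not events. The other alternatives gave between 6426 and 8087 lost events.

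Other differences at like strength changed their interval's side of 0 or their direction, and the cause was not tested. With windows of 500 bp, day 5 ATAC reversed to 2.43, day 2 and day 4 ATAC became 1.50 and 2.36, and DNase −0.0385. With 200 bp, DNase was −0.0731, day 2 and day 4 ATAC 0.657 and 1.46, day 5 p300 −0.128 and the library labelled Lhx3 0.384. Day 5 ATAC was −1.28 at 50 bp and −1.03 at 0 bp, and day 6 H3K27ac was 1.22 at 1000 bp. With the strongest event of each 1 kb region, DNase was −0.120, day 4 ATAC 0.836, day 5 ATAC 1.01 (reversed), day 6 H3K27ac 1.75, day 5 p300 −0.446 and the library labelled Lhx3 0.283. With no day 6 event within 500 bp, day 5 ATAC was −1.28 and day 6 H3K27ac −1.25 (reversed), and against events kept within 100 bp day 5 ATAC was −1.11. The library labelled Lhx3 was 0.222 with 200 bp as the limit of loss, 0.222 without events of 10 or more control reads and 0.157 with its own −log10 q of 3 or more. With day 5 −log10 q of 3 or more, DNase was −0.145 and day 4 ATAC 1.21, and with the higher-scored 50% of peaks −0.0635 and 0.865. Of 2 alternatives chosen after seeing the data, 40 strata gave day 4 ATAC 0.692 and the library labelled Lhx3 0.255, and 10 strata of −log10 q gave day 5 ATAC −1.03.

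Differences as listed, before weighting, moved more. Weighting itself gave day 2 and day 4 ATAC 0.115 and 0.572, day 5 ATAC −0.641, day 5 and day 6 H3K27ac 3.25 and 0.777, day 5 Isl1 0.853 and the library labelled Lhx3 0.215. Within the lowest of 5 classes of reads, DNase was −0.145, ATAC of days 2, 4 and 5 −0.208, 0.704 and 0.395, H3K27ac of days 5 and 6 2.39 and 0.336, p300 of days 5 and 6 0.168 and −0.231, Isl1 of days 5 and 6 0.227 and −0.111, and the library labelled Lhx3 0.0678. Within the highest of 5 classes, DNase was −0.184, ATAC of days 2 and 4 −0.656 and −1.05, day 4 H3K27ac 1.15, day 5 Isl1 0.430, the library labelled Lhx3 0.298 and Ngn2 0.966. With day 5 −log10 q of 3 or more, DNase was −0.258, day 2 ATAC −0.372, day 5 Isl1 −0.711 and the library labelled Lhx3 −0.459. With the measure's own −log10 q of 3 or more, day 5 Isl1 was −0.311 and the library labelled Lhx3 −0.104, and Isl1 in both day 5 libraries gave −0.193. With the higher-scored peaks, DNase was −0.102 and ATAC of days 2 and 4 −0.271 and −0.0556. At 200 bp, DNase was −0.200, day 2 ATAC −0.272, day 5 Isl1 −0.485 and the library labelled Lhx3 −0.294. At 500 bp, DNase was −0.215 and ATAC of days 2 and 4 0.359 and −0.482, and at 0 bp day 2 ATAC was −0.259. With the strongest event of each 1 kb region, day 2 ATAC was −0.384, day 5 H3K27ac 1.26, day 5 Isl1 −0.245 and the library labelled Lhx3 −0.0812. DNase gave no value at 0 bp, where no event had a peak.

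Leaving out 1 library left the differences at like strength between 2.77 and 3.30 for day 4 H3K27ac, 0.497 and 0.655 for day 5 Isl1 and −1.74 and −0.788 for day 6 Isl1. No paired analysis was possible because every value is a share of the events of 1 Onecut1 library and comes from no test across libraries. The depth of the lists limits all of this: a site below 6 reads on day 6 is not listed, and reads per library are not given in the sources used here.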
